A study of Mus musculus with 8 samples.

Results

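Dilator muscle nuclei were those to which the deposited annotation of each nucleus gave the cell type dilator muscle, in the 3 libraries made from untreated mouse irises. They numbered 4357 of 14365 untreated nuclei, and the series held 34357 nuclei in 8 libraries and 10 cell types. The other 9 types were the iris pigment epithelium (iris PE, 3719 untreated nuclei), stroma 2 (3040), stroma 1 (1292), sphincter 1 (544), the ciliary body epithelium (CBE, 373), sphincter 2 (352), non-epithelial ciliary body (CB, 346), leukocytes (193) and endothelial cells (149). Single nucleus RNA-seq had been run on wild-type female albino mice aged 6 to 8 weeks, and each library was a pool of 5 to 6 irises with part of the ciliary body, so that no value belongs to 1 animal. The untreated libraries (n = 3) were compared with one another across cell types, and with constricted libraries (n = 3; 5% pilocarpine every hour for 6.5 hours, in the light) and dilated libraries (n = 2; 5% phenylephrine with 1% cyclopentolate every hour for 6.5 hours, in the dark). All 3 groups had the same genotype, and in the treated groups the effects of drug and of lighting cannot be told apart. Library 1 of the untreated group was the shallowest: it held 403 dilator nuclei with 1604121 unique molecular identifiers (UMIs), against 2080 nuclei with 7105128 UMIs in library 2 and 1874 nuclei with 6321621 UMIs in library 3. A UMI marks 1 captured transcript. The median dilator nucleus had 3926, 3379.5 and 3344.5 UMIs in libraries 1, 2 and 3, and nuclei of the remaining types had 3382, 2758 and 2881. At most 0.141% of the barcodes of an untreated library were also found in another untreated library. Untreated library 1 shared 63 barcodes with dilated library 1 (4.26% of its nuclei) and 14 with constricted library 1 (0.947%), and the count of genes changed with dilation is also given without untreated or dilated library 1. A doublet caller marked 19 of the 4357 dilator nuclei (0.436%).

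The dilator is a thin sheet of radial muscle behind the iris stroma that pulls the pupil open. It is held to develop from the anterior layer of the optic cup, a neuroepithelium. From its lineage tracing the study proposes a model in which neural crest cells marked by Wnt1-Cre2, but not Sox10-Cre, give most dilator progenitors. The origin of the cells was not tested here. Dilator cells are myoepithelial, with a contractile process and a pigmented cell body. Noradrenaline from sympathetic nerves contracts them through alpha-1 adrenergic receptors, whereas the sphincter closes the pupil under acetylcholine, which acts through muscarinic receptors.

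The label was first checked against 6 markers: the receptors Adra1a and Chrm2, the neuronal nitric oxide synthase Nos1, the actin-binding protein smoothelin (Smtn), the growth factor Pdgfa and the homeodomain factor Otx2. Levels were computed from the UMIs of all nuclei of a type summed per library, as counts per 1000000 UMIs (CPM). Because the cell types were clusters of these same counts, differences between types are described by the library values and carry no test. In mm10 coordinates the markers lie at chr14:66635251-66771168 (Adra1a), chr6:36388084-36528414 (Chrm2), chr5:117781032-117958840 (Nos1), chr11:3517523-3540612 (Smtn), chr5:138976014-138997370 (Pdgfa) and chr14:48657677-48673819 (Otx2), and UMIs from exons and introns both counted.

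The 5 receptor, enzyme, cytoskeletal and ligand markers were highest in dilator muscle in each untreated library. Adra1a, the alpha-1A adrenergic receptor, was at 507, 456 and 473 CPM in libraries 1, 2 and 3 (479 ± 25.8, mean ± SD, n = 3). The next type, sphincter 2, had 247, 196 and 234 CPM, so that the lowest dilator library lay above every library of the other types, and the ratio of means was 1.08 on the log2 scale. Chrm2, the muscarinic M2 receptor, was at 675, 579 and 635 CPM (630 ± 48.4, n = 3), against 315 ± 35.4 CPM in sphincter 1. Nos1 stood furthest apart among the markers. It was at 218, 253 and 268 CPM in dilator muscle and at 36.6, 45.8 and 20.8 CPM in sphincter 2, a 7.16-fold difference of means. Smtn had 502, 482 and 529 CPM (504 ± 23.6, n = 3), against means of 270 ± 40.8 (sphincter 2) and 224 ± 46.1 (sphincter 1). Pdgfa, a ligand of the platelet-derived growth factor receptors, had 647, 614 and 715 CPM, against means of 389 ± 47.3 (sphincter 2) and 129 ± 10.2 (sphincter 1). These 5 genes thus separated the dilator libraries from all others without overlap. Otx2 did not. Its dilator level of 332, 338 and 347 CPM (339 ± 7.60, n = 3) lay below the means of CB (434 ± 93.8 CPM) and sphincter 2 (395 ± 65.2 CPM), and the libraries of these types overlapped with those of dilator muscle. Iris PE held 11.2 ± 0.991 CPM of Otx2 and CBE 11.4 CPM, so that this factor set dilator muscle apart from the pigmented and ciliary epithelia rather than from CB and sphincter 2.

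**Figure D1:**
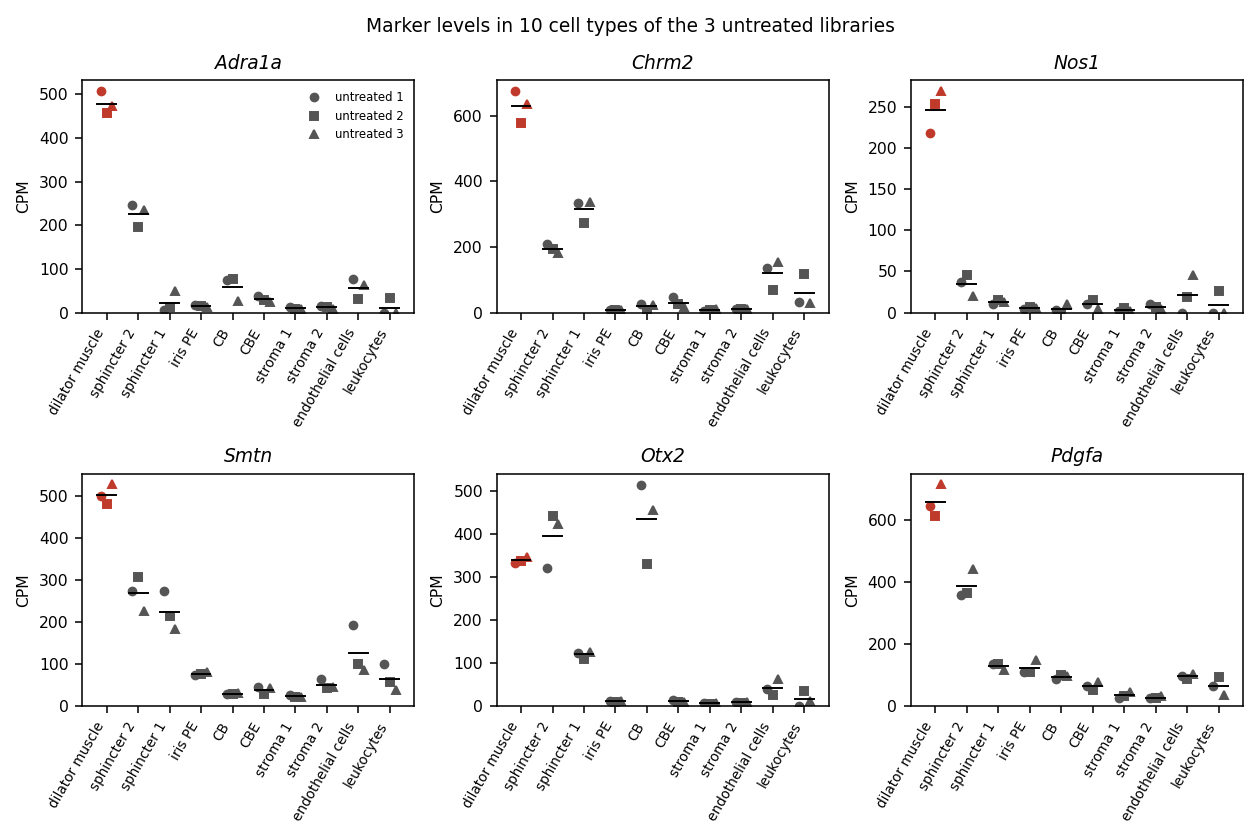
Level of the 6 markers in the 10 cell types of the untreated libraries, in CPM on a linear axis from 0; each point is 1 of 3 libraries and each short line is their mean. The dilator points lie above all others for Adra1a, Chrm2, Nos1, Smtn and Pdgfa, and among those of CB and sphincter 2 for Otx2.

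Single nuclei also carried the marker combination. The median dilator nucleus had at least 1 UMI of 4 of the 6 markers, 617 nuclei (14.2%) had all 6, and 75 nuclei (1.72%) had none. At least 3 markers were found in 83.6%, 82.7% and 85.8% of the dilator nuclei of libraries 1, 2 and 3, compared with 57.7% of sphincter 2, 18.8% of sphincter 1, 4.15% of leukocyte and 1.24% of iris PE nuclei. Since deeper nuclei show more genes, each nucleus was also thinned to 1000 UMIs, which left out 26 dilator and 15 leukocyte nuclei. At least 3 markers then remained in 34.7% of dilator nuclei and 11.1% of sphincter 2 nuclei, and none in 10.2% of dilator nuclei. For single markers at this depth, Adra1a was found in 34.8% of dilator and 1.69% of leukocyte nuclei, and Nos1 in 20.5% and 0.56%. Without thinning these shares were 68.5% and 3.11% for Adra1a and 50.4% and 2.07% for Nos1. Leukocytes, a type that should lack these genes, serve as the background, at a median of 1998 UMIs per nucleus before thinning. The doublet caller marked 16 of the 193 leukocyte nuclei (8.29%), which were kept, and the parts of doublets and of free RNA in this background were not tested. Chrm3, the muscarinic receptor of the sphincter, was found in 1.96% of thinned dilator nuclei and 2.25% of leukocytes (6.495% and 2.07% without thinning). At this depth it was found in 3.39% of iris PE and 0.959% of stroma 2 nuclei.

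Across all genes, 4043 had a mean of at least 50 CPM in dilator muscle, and 128 of them (3.17%) were higher in every untreated dilator library than in any library of the other 9 types. The dilator mean was the highest of the 10 types for 334 genes (8.26%). These 128 genes are called identity genes below. The same rule found 81 genes in iris PE, 82 in sphincter 2, 186 in sphincter 1, 203 in CB, 217 in CBE, 358 in stroma 2, 384 in endothelial cells, 411 in stroma 1 and 844 in leukocytes. Most differences were small: the ratio of dilator muscle to the next type had a median log2 of 0.60 (-0.61 over all 4043 genes), 25 genes were more than 2-fold and 4 more than 4-fold above it. Sphincter 2 was the next type for 50 of the 128 genes, iris PE for 31 and CB for 12. Types with few nuclei give noisier library values, and the rule rests on these too. At the edge of the rule, Nck2 was inside with a lowest dilator library of 189.0 CPM against 188.3 CPM in a sphincter 2 library, and Cep164 was outside with 124.1 CPM against 125.1 CPM in a stroma 1 library. The count depended on the libraries: it was 216 without untreated library 1, and 15 where the rule was applied to all 8 libraries, of which 14 were among the 128. Of the 128 genes, 126 were found in the mm10 gene annotation, 109 of them as protein coding, 11 as antisense transcripts and 6 as long intergenic RNAs.

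The identity genes with the largest ratios after Nos1 included transporters, receptors and cell-adhesion proteins. Abcc2, an export pump of conjugated compounds, was at 61.1, 61.8 and 65.8 CPM in dilator muscle and 12.4 CPM in sphincter 2, where 1 library was at 0. Il1rapl2, a receptor of the interleukin-1 receptor family, had 358, 392 and 395 CPM, a 3.85-fold higher mean than in iris PE (108, 90.5 and 99.1 CPM). Its gene spans 1276 kb of chromosome X, and since UMIs of nuclei also come from introns, levels are compared between cell types within a gene and not between genes. The contactin Cntn6 had 53.1 ± 3.63 CPM, against 21.5, 15.9 and 13.5 in sphincter 1. Cntnap4, a contactin-associated protein, had 362, 417 and 353 CPM, against 174 in sphincter 2. Lypd6b, a modulator of nicotinic receptors, had 196 ± 24.9 CPM against 64.8 CPM in sphincter 2. Htr4, a serotonin receptor coupled to cAMP, was low but even, at 52.4, 54.6 and 57.6 CPM against 26.4 CPM in CB.

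Among enzymes and cell-death genes, Gsdme, a pore-forming gasdermin, had 1138, 1286 and 1252 CPM, a 2.47-fold higher mean than in sphincter 2. The peptidase Dpp4 had 347, 461 and 480 CPM, against 171 CPM in CB. An antisense gene on the opposite strand of Dpp4, Gm13561, was also an identity gene (148, 120 and 127 CPM, against 37.3 CPM in iris PE). The genes overlap (chr2:62330073-62412231 on the minus strand and chr2:62357071-62470913 on the plus strand), and how strand was used in counting is not given in the sources used here, so their UMIs may be shared. The same holds for 3 pairs in which an antisense identity gene named below overlaps a gene on the other strand, 9630028H03Rik with Plcb1, Gm49067 with Tgm1 and Gm45904 with Cntnap4, and for Otx2, Dct, Gsdme, Pdgfc, Zic1 and the pair Col4a1 and Col4a2, which also overlap genes of the other strand. Ch25h, which makes 25-hydroxycholesterol, had 53.0, 57.4 and 66.4 CPM, against 27.9 CPM in leukocytes, and the transglutaminase Tgm1 had 109, 64.3 and 61.4 CPM, against 27.2 CPM in iris PE. Tgm1 was the most uneven of these over the dilator libraries, with library 1 well above the others. Cracr2a, a calcium-binding regulator of store-operated calcium entry, had 120, 110 and 104 CPM. Its next type, leukocytes, had 99.3 CPM in library 1 and 11.4 and 12.4 CPM in the others. Leukocytes had few nuclei in library 1, so that value rests on few UMIs. The kinase Pak7 (180 ± 17.4 CPM), the unconventional myosin Myo16 (210 ± 5.38 CPM) and Fnip2, a partner of folliculin (529 ± 47.3 CPM), were 2.00- to 2.57-fold above the next type. Zmat4, Tst, Pacsin1, Zfp503, Gm49067 and Gm45904 made up the rest of the 25, at 75.9 to 171 CPM and 2.12- to 3.32-fold above the next type. Several of the genes with the largest ratios have no assigned function, led by the transcript 9630028H03Rik with 455, 500 and 528 CPM against 90.7 CPM in endothelial cells, and Gm19276 with 63.0, 65.2 and 68.2 CPM against 13.2 CPM in sphincter 2.

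**Figure D2:**
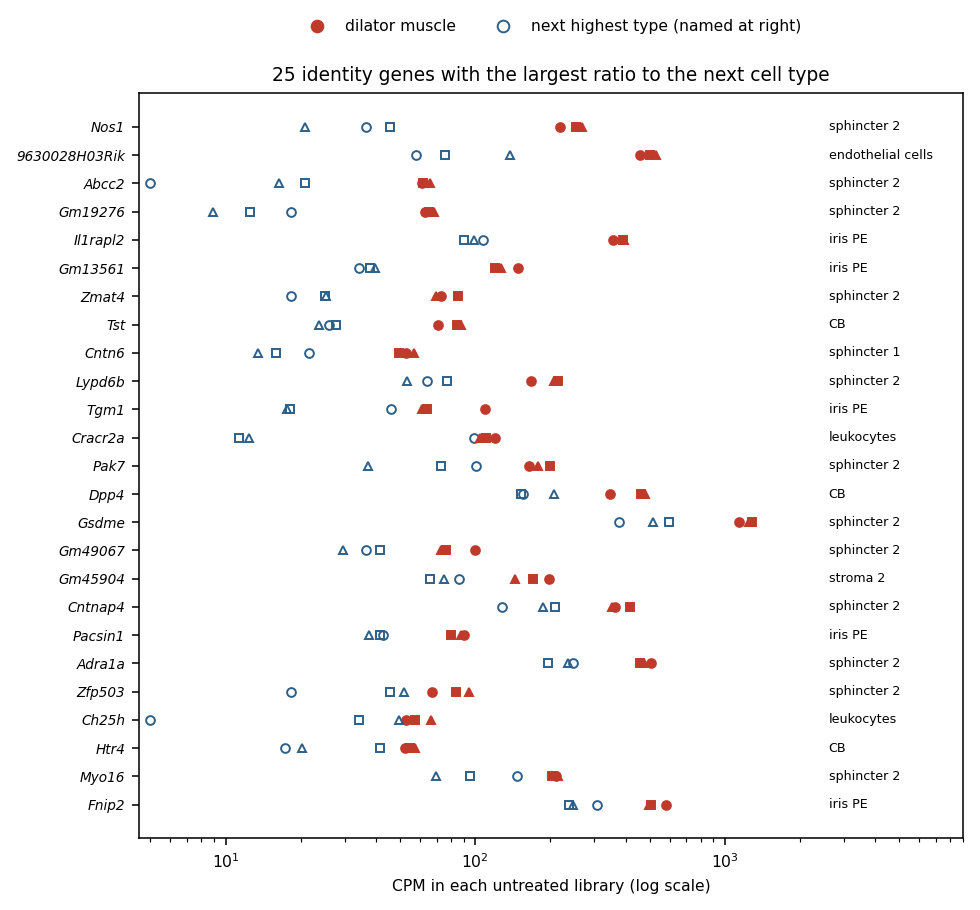
Level of the 25 identity genes with the largest ratio to the next cell type, in CPM on a log axis; filled points are the 3 untreated dilator libraries and open points those of the next type, with circles for library 1, squares for 2 and triangles for 3. Values under 5 CPM, such as the 0 of Abcc2 and Ch25h in library 1 of the next type, are drawn at 5. Dilator points lie to the right of the open points for every gene.

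The sequences before the start sites of the dilator genes were read for the homeodomain element recognised by OTX factors (letters TAATCC, searched on both strands) and the CArG box, the binding element of serum response factor (both strands by its symmetry). In the 250 bases before RefSeq start sites (GRCm38.p6), TAATCC was found in 7 of 128 windows of the identity genes (5.47%; 96 of 128 genes had a window), close to the 6.25% of all 32851 windows. The identity genes with it were Chrm2, Dpp4, Gm13561, Nos1, Slc9b2 and Sv2b. Among the 6 markers, 5 had windows and Chrm2, Nos1 and Otx2 held the letters, in 3 of 9 windows. Nos1 and Chrm2 are shown since they are the markers that are both identity genes and hold the element (capitals). On the plus strand, the Nos1 window (chr5:117866589-117866838) lies inside the gene as the mm10 annotation draws it, and the Chrm2 window (chr6:36387834-36388083) ends at the base before its start.
Nos1: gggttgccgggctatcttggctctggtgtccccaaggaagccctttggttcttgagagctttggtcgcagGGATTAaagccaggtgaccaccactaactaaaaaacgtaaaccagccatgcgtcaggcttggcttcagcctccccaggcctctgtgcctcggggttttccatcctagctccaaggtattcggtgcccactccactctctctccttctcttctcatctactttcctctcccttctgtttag
Chrm2: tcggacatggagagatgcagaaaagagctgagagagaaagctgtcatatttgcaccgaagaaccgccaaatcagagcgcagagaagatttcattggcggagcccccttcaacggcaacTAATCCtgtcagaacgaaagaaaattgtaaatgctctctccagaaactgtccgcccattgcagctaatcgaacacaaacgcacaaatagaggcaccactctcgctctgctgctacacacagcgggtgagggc
The Nos1 match begins 180 bases and the Chrm2 match 132 bases before the start. The CArG box was in 1.47% of all windows, in 0 of 128 windows of the identity genes and in 3 of 20 windows of contractile genes (15%; Myl6, Myl9 and Vcl; 18 of 22 genes had a window). Shown with the box in capitals are Myl9, the regulatory myosin light chain (chr2:156775214-156775463, plus strand), and Vcl, the adhesion protein vinculin (chr14:20929148-20929397, plus strand), since both belong to the contractile genes described next.
Myl9: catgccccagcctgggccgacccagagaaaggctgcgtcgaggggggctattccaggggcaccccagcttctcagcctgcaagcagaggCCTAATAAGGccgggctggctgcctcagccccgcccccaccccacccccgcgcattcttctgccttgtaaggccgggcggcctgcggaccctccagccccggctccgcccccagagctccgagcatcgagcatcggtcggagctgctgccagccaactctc
Vcl: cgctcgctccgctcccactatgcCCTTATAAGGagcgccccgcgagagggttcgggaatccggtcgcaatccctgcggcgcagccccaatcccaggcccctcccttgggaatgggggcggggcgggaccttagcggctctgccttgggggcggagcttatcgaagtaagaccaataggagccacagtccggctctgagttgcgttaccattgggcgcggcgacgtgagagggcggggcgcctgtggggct
These boxes begin 161 bases (Myl9) and 227 bases (Vcl) before the start. A match is a string of letters and was not tested for binding.

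Contractile genes were abundant in dilator muscle, but all except Mylk, Smtn and Cit had their highest mean in another type. Of 22 genes of the smooth muscle contractile apparatus, 18 reached 50 CPM and those 3 were identity genes, against 3.17% of all genes at that level. Mylk, the kinase that activates smooth muscle myosin, had 7842, 8389 and 8404 CPM (8212 ± 320, n = 3), against 5456 ± 386 in sphincter 2, 2982 ± 131 in sphincter 1 and 2827 ± 92.6 in iris PE. Cit, the citron kinase, had 573, 663 and 664 CPM against 405 ± 21.2 CPM in sphincter 2. The myosin heavy chain Myh11 had 1681, 2022 and 2090 CPM (1931 ± 219, n = 3). Its mean was below those of sphincter 1 (2940 ± 268) and sphincter 2 (2801 ± 344), while iris PE had 78.0 ± 1.21 CPM. Myl9 (608 ± 56.1 CPM) and the actin-binding Cald1 (602 ± 8.15 CPM) were likewise below both sphincter types. The smooth muscle actin Acta2 had 954, 446 and 438 CPM and the actin-associated Tagln 737, 357 and 372 CPM, so that untreated library 1 was high for both and the other libraries agreed closely. Sphincter 1 of library 1 had 1634 CPM of Acta2. Without thinning, every cell type had its largest share of nuclei with Acta2 in library 1, as in stroma 2 (24.9%, 7.97% and 11.7% in libraries 1, 2 and 3). After thinning this held in stroma 2 (11.1%, 3.66% and 5.45%) but not in CB, endothelial cells or leukocytes. The cause of the high values in library 1 was not tested. The genes below 10 CPM were 4 in number: Actg2 (1.95 ± 1.56 CPM, 185 in sphincter 1), Cnn1 (8.65 ± 1.17, 197 in sphincter 1), Des (4.49 ± 1.37, 211 in sphincter 1) and Ppp1r14a. The summed level of the 22 genes was 16741 CPM in dilator muscle, 20355 in sphincter 1, 21835 in sphincter 2 and 4823 in iris PE.

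Of 8 measured regulators of smooth muscle genes, 3 reached 50 CPM. Myocardin (Myocd), the coactivator that drives smooth muscle genes through serum response factor, had 33.7, 27.0 and 38.3 CPM in dilator muscle, against 896 ± 107 (sphincter 1) and 638 ± 183 (sphincter 2), a 27.2- and 19.3-fold difference. The smooth muscle long noncoding RNA Carmn was also lower than in sphincter, at 1036 ± 156 CPM against 3012 ± 556 CPM in sphincter 1, and far above the 63.7 ± 4.19 CPM of iris PE.

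Receptors of the autonomic nerves were represented by a single adrenergic and a single muscarinic gene at 50 CPM or more. Adra1a was the only one of 9 adrenergic receptor genes to reach it; Adra1b followed with 26.2, 29.1 and 30.1 CPM, below the 236 CPM of stroma 2, and the other 7 were below 10 CPM. Among 4 muscarinic receptor genes measured, Chrm2 reached it. Chrm3 was at 23.7, 18.0 and 25.3 CPM in dilator muscle, against 3958 ± 154 (sphincter 1) and 665 ± 124 (sphincter 2). Dilator muscle thus held Chrm2 and sphincter 1 both Chrm2 and Chrm3, and the dilator Chrm3 level was near that of iris PE (35.5 ± 5.35 CPM) and CB (20.0 ± 12.7 CPM).

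Downstream of these receptors, 13 of 30 genes that link receptors to calcium reached 50 CPM, and 1, the G protein subunit Gnao1 (670 ± 74.6 CPM, against 522 ± 56.2 in sphincter 2), was an identity gene, where the share over all genes at that level was 3.17%. Phospholipase C was represented by Plcb4 (3369 ± 368 CPM), which was also high in both sphincter types (2820 ± 101 and 4402 ± 497 CPM), and by Plcb1. Plcb1 had 668, 626 and 628 CPM in dilator muscle and 791 ± 40.4 CPM in endothelial cells, and at most 148 CPM in the remaining types. The calcium release channels Itpr1 and Ryr3 were lower than in sphincter 1. Itpr1 was at 148 ± 12.2 CPM against 1362 ± 273 CPM, and Ryr3 at 260 ± 29.0 CPM against 1369 ± 216 CPM. Of 12 nitric oxide and cGMP genes measured, 6 reached 50 CPM. Nos1, itself a marker of the part, was the only identity gene, where 3.17% of all genes at that level were. Prkg1, the cGMP-dependent kinase that relaxes smooth muscle, was lower in dilator muscle than in any other type, as given below.

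Several transcription factors of the optic cup, and none of the neural crest list, reached 50 CPM in dilator muscle. Of 15 measured factors of the neuroepithelial eye, 9 reached 50 CPM and 2, Lhx2 (76.8 ± 1.48 CPM, against 51.3 ± 21.2 in sphincter 2) and Meis2 (1050 ± 54.4 CPM, against 882 ± 80.9 in CB), were identity genes, where 3.17% of all genes at that level were. Pax6, the eye-field factor, was at 1506 ± 152 CPM, between the means of sphincter 2 (1408 ± 129) and iris PE (1691 ± 63.4). Mitf, the pigment cell factor, was at 1038 ± 43.1 CPM and close to iris PE (1025 ± 82.9). Zic1, a factor of the iris and ciliary epithelia, had its lowest level in dilator muscle (13.9 CPM). None of 12 neural crest and periocular factors measured, Sox10 and Tfap2b among them, reached 50 CPM, and 10 were below 10 CPM.

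Several pigment genes, Dct and Tyr among them, were nearer to their level in iris PE than to that in sphincter muscle. The mice were albino, so these are transcripts of pigment genes in tissue without melanin. Of 13 melanin genes measured, 12 reached 50 CPM. Dct, an enzyme of melanin synthesis, was at 5220 ± 321 CPM in dilator muscle and 7060 ± 525 CPM in iris PE, against 952 ± 190 (sphincter 2) and 586 ± 221 (sphincter 1). Tyr, the tyrosinase, was at 1214 ± 61.1 CPM, against 1959 ± 132 CPM in iris PE and 146 ± 38.0 CPM in sphincter 2. The members Gpnmb and Trpm1 had their highest mean in dilator muscle, but their libraries overlapped with other types. The melanosome glycoprotein Gpnmb was at 1946 ± 104 CPM, against 1711 ± 395 in stroma 1, and the channel Trpm1 at 2825 ± 207 CPM, against 2519 ± 390 in iris PE. The 13 genes summed to 15208 CPM in dilator muscle, 17387 in iris PE and 40174 in stroma 1. After thinning, Dct was found in 95.4% of dilator nuclei and Tyr in 61.2%, and in leukocytes in 33.7% and 6.74%. The shares without thinning were 99.7% and 85.8% in dilator muscle and 53.9% and 14.5% in leukocytes.

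Of 28 neuronal and exocytosis genes, 9 reached 50 CPM and 4 were identity genes, against 3.17% of all genes at that level: Unc13c, which primes vesicles (1981, 2299 and 2398 CPM, against 1610 ± 276 in sphincter 2), the vesicle protein Sv2b (618 ± 32.7 CPM, against 339 ± 31.8), the scaffold Dlg2 (1348 ± 58.0 CPM, against 1003 ± 250) and the kinase anchor Sphkap (386 ± 52.1 CPM, against 220 ± 31.9). The potassium channel subunit Kcnip4 was at 5105 ± 531 CPM, below CB (8601 ± 605). The secreted protein Reln was at 706 ± 31.5 CPM, below CB (1358 ± 163). Syt1, the calcium sensor of vesicle release, went the other way, with 41.1, 38.4 and 41.0 CPM in dilator muscle and 4497 ± 328 CPM in sphincter 1.

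Among the PDGF genes, the ligands Pdgfa, Pdgfc (286 ± 85.5 CPM) and Pdgfd (311 ± 36.1 CPM) reached 50 CPM and the ligand Pdgfb was at 10.04 CPM, whereas the receptors Pdgfra (5.43 ± 2.07 CPM) and Pdgfrb (9.68 ± 6.78 CPM) were far below stroma 2 (906 and 262 CPM). Of 24 basement membrane and integrin genes, 9 reached 50 CPM and 7 were below 10 CPM. Of these, 1 was an identity gene, where the share over all genes at that level was 3.17%. This was Col4a5 (656, 676 and 669 CPM, against 532 ± 41.1 in iris PE). Col4a6 had 709 ± 43.2 CPM, and Col4a1 had 5.61, 5.21 and 4.27 CPM, the lowest mean of the 10 types, against 203 CPM in endothelial cells.

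**Figure D3:**
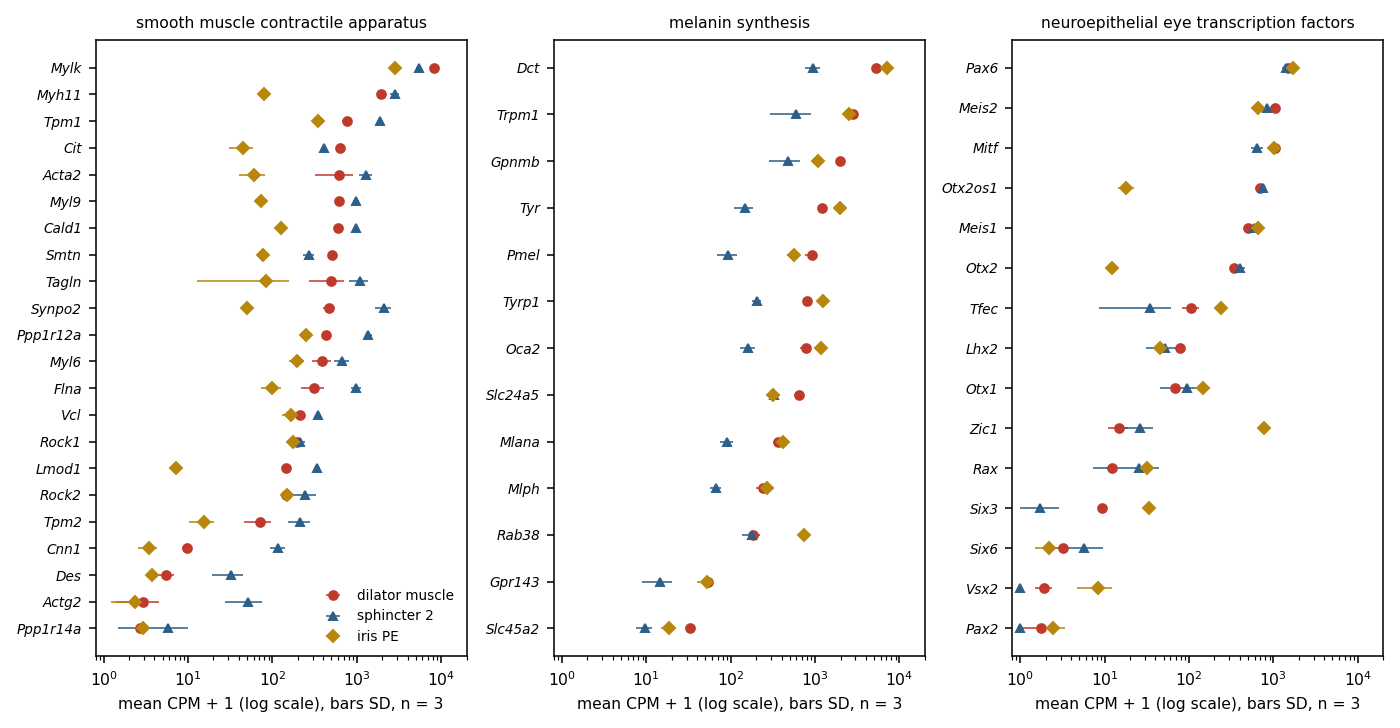
Mean level of the measured members of 3 gene lists in dilator muscle, sphincter 2 and iris PE of the untreated libraries, as CPM + 1 on a log axis; bars are the SD over 3 libraries. Contractile genes lie above sphincter 2 (Mylk, 8212 against 5456 CPM, Smtn and Cit), below it (Myh11, 1931 against 2801 CPM) or far below it (Cnn1, 8.65 against 117 CPM), Dct lies near iris PE (5220 against 7060 CPM), and Pax6 is near both types.

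In the other direction, 11 of 2024 genes (0.543%) that reached 50 CPM in each other type were lower in every dilator library than in any library of the rest. Ppp3cc, a catalytic subunit of calcineurin, was at 21.2, 18.4 and 16.9 CPM, a 2.88-fold lower mean than in the next lowest type, sphincter 2 (54.2 ± 10.2 CPM). Prkg1 was at 170, 113 and 107 CPM, against 315 ± 38.6 CPM in CBE and 5310 ± 749 CPM in CB. Sh3kbp1, an endocytic adaptor (34.5 ± 6.89 CPM), Nav2, a neuron navigator protein (50.8 ± 3.17 CPM), and the kinase Cdk14 (103 ± 6.80 CPM) were 1.44- to 1.71-fold below their next lowest types.

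A few genes were shared with 1 other type, at 4-fold or more above all remaining types. With CB these included Ccbe1, a secreted factor (160, 157 and 141 CPM in dilator muscle, against 323 ± 53.8 in CB), and Cacng4, a calcium channel gamma subunit (123, 136 and 110 CPM, against 987 ± 97.0 in CB). With sphincter 2 dilator muscle shared the unannotated transcripts AC129186.1 (951 ± 26.8 CPM) and AC159282.1 (386 ± 54.9 CPM), and with endothelial cells Plcb1. No gene met this rule with iris PE, sphincter 1, CBE, either stroma type or leukocytes.

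Over all 22873 genes, the dilator profile lay nearest to sphincter 2. Pearson r of log10(1 + counts per 10000 UMIs) within a library averaged 0.928 with sphincter 2, 0.906 with iris PE, 0.875 with CB, 0.855 with sphincter 1, 0.834 with CBE, 0.768 with stroma 1, 0.761 with endothelial cells, 0.752 with stroma 2 and 0.660 with leukocytes. The value for sphincter 2 ranged from 0.902 to 0.943 over the libraries and thus reached below that of iris PE in 1 of them, and the dilator libraries correlated with one another at 0.987 to 0.998. These are correlations across genes, which are not independent replicates, and types with few nuclei have noisier profiles.

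Markers of other cells were low in the dilator sums. Sphincter markers (6 genes) summed to 154 CPM, against 13696 in sphincter 1, with Ctnna3 the most abundant at 42.8 CPM. Melanocyte and Schwann cell markers (6) summed to 25.2 CPM (3026 in stroma 1), and fibroblast markers (6) to 136 CPM, led by Dcn at 53.0 (6388 in stroma 2). Mural cell markers (6) summed to 32.2 CPM, led by Notch3 at 11.0, leukocyte markers (6) to 14.2 CPM, led by Mrc1 at 8.75 (4966 in leukocytes), and the 5 measured lens, cornea and retina markers to 8.29 CPM, led by Sag at 5.58. Endothelial markers (6, led by Tek at 20.8 CPM) summed to 78.5, 21.1 and 32.7 CPM in libraries 1, 2 and 3, against 7674 CPM in endothelial cells, and library 1 stood highest. The list of pigment and ciliary epithelium markers summed to 1303 CPM, of which Tyr made 1214 CPM. No measured marker in these 8 lists was at 0 UMIs over the untreated dilator nuclei, and their part in the dilator values was not tested.

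Dilator nuclei made up 27.2%, 32.5% and 28.9% of the untreated libraries, with 95% Wilson intervals for counting error of 25.0 to 29.6, 31.4 to 33.7 and 27.8 to 30.0%. The share was 38.1%, 33.5% and 38.6% in the constricted and 35.1% and 35.2% in the dilated libraries, so that every treated library was above every untreated one, although the interval of the second constricted library (31.0 to 36.2%) overlapped with that of untreated library 2. The mean difference was 7.20 percentage points for constriction (exact permutation test, two-sided, p = 0.1) and 5.60 for dilation (p = 0.2, exact permutation test), in both cases the smallest p that these numbers of libraries allow. The study proposes that its dissections kept a varying part of the ciliary body. As a share of nuclei other than CB and CBE the differences were 8.05 and 7.68 percentage points. Shares add to 100%, so a higher share of dilator nuclei and fewer nuclei of another type cannot be told apart.

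How far the untreated profile held under the drugs was read from the same dilator sums in all 8 libraries, in 1 edgeR quasi-likelihood fit over 15395 genes. A gene was called at an adjusted p (Benjamini-Hochberg) under 0.05 and an absolute log2 fold change above 0.6. With constriction 1 gene was called (0.0065% of those tested) and none of the 128 identity genes; 630 genes had an unadjusted p under 0.05, and DESeq2 called 13. The gene was Serpina3n, an acute phase protease inhibitor, with 3.74, 1.55 and 0.791 CPM in untreated and 15.9, 11.5 and 15.9 CPM in constricted libraries (log2 fold change 3.26, SE 0.347, adjusted p = 0.0087). In the dilated libraries Serpina3n was higher still, at 48.6 and 54.3 CPM. It was named after its values were seen. Leaving out constricted library 2, untreated library 2 or untreated library 3 in turn left 0 genes called. Without being called, 88 of the 128 identity genes and 5 of the 6 markers had a lower fitted level with constriction. The median log2 fold change of the identity genes was -0.09, against 0.01 over all genes, though their choice by high untreated values favours a fall.

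With dilation 2054 genes (13.3%) were called in dilator muscle, 1109 higher (7.2%) and 945 lower (6.14%). Without TMM scaling, which moved the median of all genes from 0.02 to -0.16 (log2), the split was 726 higher and 1532 lower, and the changes below are on the TMM scale. The count was 1086 without dilated library 2, 1419 without dilated library 1, 1989, 1143 and 1203 without untreated libraries 1, 2 and 3, and 3197 with the series of library numbers as a term. Of the 128 identity genes, 8 rose (6.25%) and 47 fell (36.7%), with a median log2 fold change of -0.42. Of all 4043 genes at 50 CPM or more in untreated dilator muscle, 349 rose (8.63%) and 359 fell (8.88%), with a median of 0.01. The identity genes had been chosen for high untreated values, which favours a fall; when the rule was applied to the constricted libraries in their place, an alternative added after the data were seen, 6 of 61 genes rose and 22 fell (36.1%), 50 of the 61 being among the 128. Of the 11 that were not, 2 rose and 1 fell. The 3 untreated libraries were the controls of both comparisons.

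The markers did not move together. Pdgfa fell to 282 and 280 CPM in the dilated libraries (log2 fold change -1.04, SE 0.179, edgeR adjusted p = 0.0022), below all untreated libraries. Chrm2 fell to 293 and 213 CPM (-1.13, SE 0.220, adjusted p = 0.0046) and Nos1 to 139 and 95.0 CPM (-0.91, SE 0.178, adjusted p = 0.0049), though neither was called without dilated library 2 (adjusted p = 0.051 and 0.066). Otx2 rose to 545 and 414 CPM (0.68, SE 0.139, adjusted p = 0.0060), and was not called without dilated library 1 (adjusted p = 0.069) or without TMM scaling, where its log2 fold change was 0.50. Adra1a was at 344 and 243 CPM, below its untreated libraries, but was not called (-0.52, SE 0.240, adjusted p = 0.18). In constricted libraries 1, 2 and 3 Adra1a had 523, 358 and 238 CPM, which overlapped with the dilated values, and Chrm2 had 623, 538 and 325 CPM. Smtn, at 580 and 469 CPM, overlapped with the untreated libraries (adjusted p = 0.28).

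The remaining identity genes included some that fell and some that rose. Il1rapl2 fell to 83.7 and 77.6 CPM (log2 fold change -2.06, SE 0.171, edgeR adjusted p = 1.9e-05) and Cracr2a to 23.8 and 22.6 CPM (-2.07), below every untreated library. Unc13c fell to 730 and 636 CPM (-1.52) and Col4a5 to 352 and 299 CPM (-0.85). The 8 that rose were Htr4, Gsdme, Gm19276, Map2, Fbxo32, Mir670hg, Amph and Slc38a2. Htr4 rose to 228 and 186 CPM (2.09, SE 0.167, adjusted p = 1.56e-05) and Gsdme to 2223 and 1993 CPM (0.97). Amph was called in only 4 of 13 alternative settings.

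**Figure D4:**
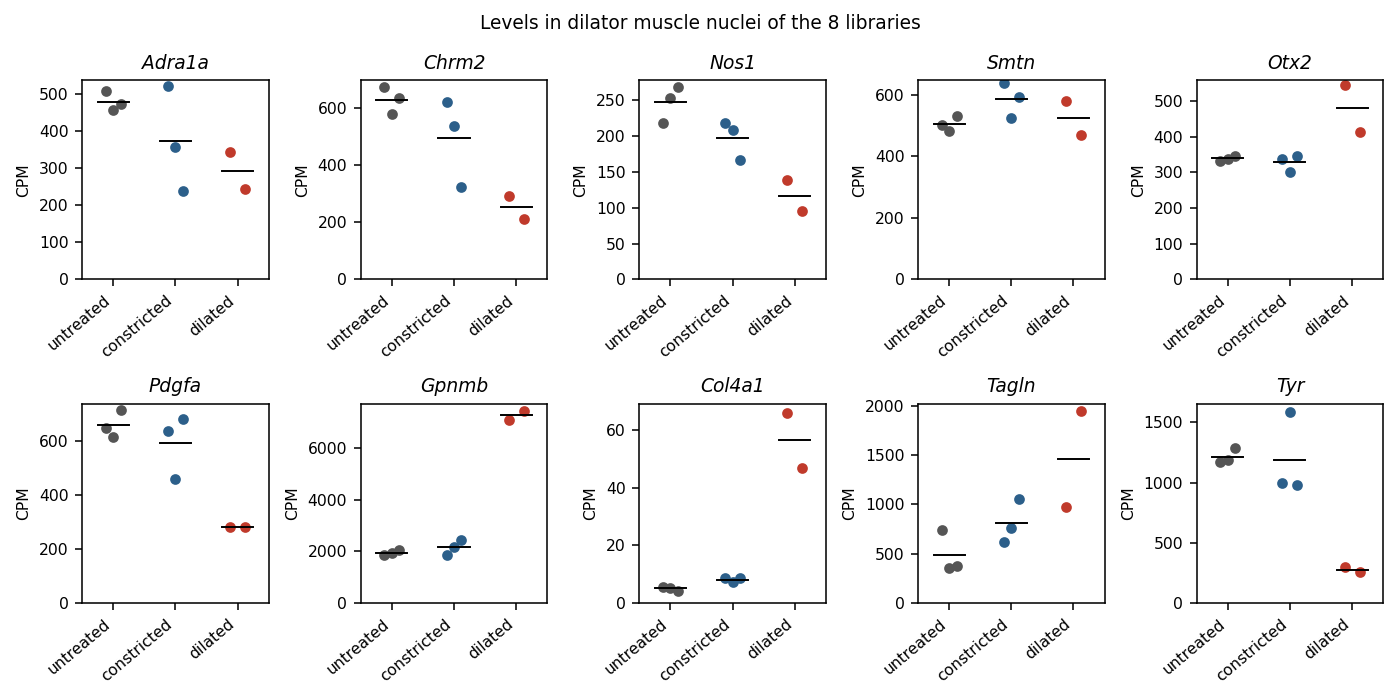
Level of the 6 markers and of Gpnmb, Col4a1, Tagln and Tyr in dilator muscle, in CPM on a linear axis from 0; each point is 1 library and each line the group mean (untreated n = 3, constricted n = 3, dilated n = 2). Dilated points lie apart from all untreated and constricted points for Chrm2, Nos1, Pdgfa, Otx2, Gpnmb, Col4a1 and Tyr, while those of Smtn overlap with both groups.

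Within the gene lists, contractile genes were called in 1 direction and pigment genes in both. Of 21 contractile genes tested, 6 rose with dilation and none fell, where 7.2% of all genes rose and 6.14% fell. The median log2 fold change of the list was 0.27 with dilation and 0.30 with constriction, where no member was called. Tagln rose to 978 and 1944 CPM (log2 fold change 1.83, SE 0.347, edgeR adjusted p = 0.0038; 1.15 and not called without dilated library 2), Vcl to 459 and 545 CPM (1.45) and Cald1 to 1055 and 1113 CPM (1.04). Flna, Tpm2 and Rock2 were the others, and these 3 were not called without TMM scaling. Mylk, at 6233 and 4703 CPM (-0.41, adjusted p = 0.12), and Myh11, at 1140 and 1246 CPM (-0.50, adjusted p = 0.065), lay below their untreated libraries but were not called. Srf, the serum response factor, rose to 18.8 and 24.5 CPM (1.03), and Myocd fell to 11.7 and 17.8 CPM (-0.99). Of 13 melanin genes, Gpnmb rose to 7086 and 7431 CPM (2.09, SE 0.167, adjusted p = 1.56e-05), Dct and Oca2 also rose, and Tyr fell to 299 and 253 CPM (-1.95), with Rab38 (-1.92) and Gpr143 (-1.31). Thus 3 of the 13 rose and 3 fell, where 7.2% and 6.14% of all genes did.

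Among the collagen IV genes, Col4a1 rose from 5.61, 5.21 and 4.27 CPM to 66.0 and 46.7 CPM (log2 fold change 3.69, SE 0.208, edgeR adjusted p = 9.13e-07) and Col4a2 rose to 153 and 90.4 CPM (2.73), whereas Col4a5 and Col4a6 (-0.67) fell. Col4a3, at 9.87 and 7.21 CPM (-0.74, adjusted p = 0.16), and Col4a4, at 15.99 and 11.0 CPM (-0.94, adjusted p = 0.11), were not called. Itga5, Itga7 and Itgb1 rose and Lamb1 fell, so that 5 of 24 basement membrane genes rose and 3 fell (7.2% and 6.14% of all genes). All 3 PDGF ligands at 50 CPM or more fell, with Pdgfc at 144 and 148 CPM (-0.75) and Pdgfd at 167 and 141 CPM (-0.82). They were the only called members of the 6 PDGF genes tested, where 6.14% of all genes fell. Of 25 receptor and calcium genes tested, 5 rose (7.2% of all genes), Rgs7 by the most (31.5 and 23.2 CPM, log2 fold change 2.28). The calcium channel Cacna1d (-0.83) and the store sensor Stim1 (-0.71) fell, a share near the 6.14% of all genes. Prkg1 rose to 256 and 173 CPM (0.93) and Gucy1b1, a subunit of guanylate cyclase, rose from low levels to 6.71 and 4.41 CPM. Adra1b rose to 43.6 and 42.9 CPM (0.77). Of 25 neuronal genes tested, Sv2c and Rims2 rose and Unc13c and Kcnip4 fell, shares near those of all genes (7.2% and 6.14%). Of 13 eye factors tested, Otx2 rose and Tfec fell, again near the shares of all genes. None of 9 neural crest factors tested was called. Among the markers of other cells, 2 of 5 sphincter markers tested (Ttn and Mybpc1) and 2 of 4 mural markers (Kcnj8 and Abcc9) fell. So did 1 of 6 fibroblast markers (Dcn) and 1 of 4 pigment and ciliary epithelium markers (Tyr), where 6.14% of all genes fell. None of the 5 melanocyte and Schwann cell, 5 endothelial, 2 leukocyte and 2 lens, cornea and retina markers that could be tested was called.

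These calls differed in how they held over 13 alternative settings. Those of Pdgfa, Unc13c, Il1rapl2, Cracr2a, Htr4, Gsdme, Vcl, Cald1, Gpnmb, Tyr, Rab38, Gpr143, Col4a1, Col4a2, Col4a5, Lamb1, Itga5, Itgb1, Rgs7, Cacna1d and Stim1 were made in all 13. Gucy1b1 was called in 5, Oca2 in 6, Ttn in 7, Flna, Tpm2, Kcnip4 and Kcnj8 in 8, and Prkg1, Srf, Myocd, Sv2c and Gm19276 in 9. Each of these lost its call in several of the settings that leave out 1 dilated or untreated library. Kcnip4 was also not called without constricted library 1, Tpm2 and Oca2 without constricted library 2, Gucy1b1, Ttn and Kcnj8 by DESeq2, and Gucy1b1 with the replicate block. Without dilated library 2 the calls of Itga7, Pdgfd, Rims2, Dct, Rock2, Adra1b, Dcn, Mir670hg and, as without dilated library 1, Col4a6, Pdgfc and Abcc9 were lost, and without dilated library 1 that of Tfec. Without TMM scaling Flna, Tpm2, Rock2, Srf, Prkg1, Gucy1b1, Oca2, Dct, Gm19276 and Adra1b were not called.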

How the data were processed

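Nuclei of pooled irises had been profiled with 10x Genomics 3′ chemistry (version 3). The authors aligned reads to mm10 exons and introns with Cell Ranger 3.1.0, removed nuclei with more than 1% mitochondrial transcripts or with fewer than 500 or more than 6000 transcripts (limits that match the genes per nucleus), and clustered nuclei of all treatments together in Seurat 4.0.1. The deposited matrices hold unnormalized whole-number UMI counts for 22873 genes, and the deposited annotation gives the cell type and the percent of mitochondrial transcripts of each nucleus. The study processed its libraries in 5 batches and 2 sequencing runs, and which library was in which is not given in the sources used here.

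For each library, the counts of all nuclei of a cell type were added up and expressed per 1000000. UMIs were the only depth measure, and libraries, not nuclei, were the replicates; each is a separate pool of irises, so p-values measure the spread between pools. Changes between conditions were fitted with edgeR 4.0.16 in R 4.3.3 (TMM, filterByExpr, glmQLFit and glmQLFTest, two-sided, all 8 libraries in 3 groups, adjusted by Benjamini-Hochberg over all genes tested). DESeq2 1.42.0, other scalings and filters, and leaving out each library were alternatives. Scrublet in scanpy 1.11.5 marked doublets, which were kept. The fit was tested on simulated data with 200 changed genes. Named were the 6 markers, the 25 identity genes with the largest ratio to the next type, the 5 lowest genes, genes shared with 1 other type, and those members of 21 gene lists (228 genes) that were identity genes, defined the list or were called; other identity genes are named where a count or a motif rests on them. A few genes that these rules name are not reported here. The members and lists were chosen with earlier results of these data known. Promoters and start sites are those of RefSeq (GRCm38.p6) and gene positions those of GENCODE for mm10.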

Additional observations from a re-analysis of the deposited data

How the results depend on the processing

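The identity genes numbered 143 to 216 when an untreated replicate was left out, the highest value without the shallow replicate 1, and 15 with all 8 libraries. They numbered 120 with doublets removed, 157 with leukocytes and endothelial cells left out, 150 with TMM-scaled CPM, 148 and 101 at minimums of 20 and 100 CPM and 186 with no minimum. With all 8 libraries the log2 ratio to the next type was 0.50 for Smtn and 0.63 for Pdgfa, and with TMM-scaled CPM it was 1.23 for Adra1a and 0.90 for Pdgfa. Leaving out a replicate gave 1.02 to 1.12 for Adra1a, 0.97 to 1.05 for Chrm2, 2.51 to 3.08 for Nos1, 0.76 to 1.04 for Smtn, 0.72 to 0.80 for Pdgfa and -0.52 to -0.34 for Otx2. The correlation with sphincter 2 was 0.997 on untransformed counts, 0.894 over expressed genes and 0.921 to 0.941 without a replicate, and that with iris PE was 0.996, 0.858 and 0.905 to 0.906. The share of dilator nuclei differed by 6.05 to 8.82 percentage points (constricted) and 4.45 to 7.10 (dilated).

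Calls with dilation ranged from 1086 to 2273 when a replicate was left out (1086 without dilated replicate 2, 1143 and 1203 without untreated replicates 2 and 3) and were 3197 with the series of library numbers as a term. A lone dilated library was then assumed to vary like the other groups. Calls with constriction were 13 with DESeq2, 2 without TMM, 9 without the filter, 3 with the series as a term and 0 to 7 without a replicate. Identity genes that rose numbered 5 to 8 and those that fell 33 to 48 without a replicate, and 22 of 61 fell when chosen in the constricted libraries (1 of the 11 that were not among the 128). With the replicate number as a block, 2619 genes were called with dilation and 6 with constriction. The deviations of same-numbered libraries correlated with r from -0.03 to 0.43. Those of the replicates numbered 1 did so with r from 0.23 to 0.43, but not every pair was above 0.1, so the numbers were not taken to pair the libraries. Between differently numbered libraries r ranged from -0.43 (constricted replicate 1 with dilated replicate 2) to 0.42 (constricted replicate 3 with dilated replicate 2). Of 101 named genes called with dilation, 97 were also called by DESeq2, 87 without TMM, 62 without dilated replicate 2 and 75 without dilated replicate 1, and none reversed; the cause of the lost calls was not tested. Dispersion rests on 8 libraries of 427 to 2567 dilator nuclei or, in untreated replicate 1, 403.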
